A study of Homo sapiens with 6 samples.

Results

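The genes examined here are the cyclins and cyclin-dependent kinases (CDKs) that carry a cell from G1 into S phase, together with the phosphatase CDC25A. The 10 members, chosen by name, were CCND1, CCND2, CCND3, CCNE1, CCNE2, CCNA2, CDK2, CDK4, CDK6 and CDC25A, out of 19970 protein-coding genes on the chromosomes that held peaks. Each was looked up in 5 peak lists of chromatin immunoprecipitation followed by sequencing (ChIP-seq), within 1 kb of any annotated transcription start site (TSS) of the gene and over the rest of its body. All libraries came from MDA-MB-231, an established cell line of human triple-negative breast cancer. Binding of the transcription factor E2F1 was mapped in untreated cells, in cells kept for 72 h in the solvent DMSO and in cells kept for 72 h in 1 µM GSK126. GSK126 inhibits EZH2, the methyltransferase of a Polycomb repressive complex that places the repressive mark H3K27me3. H3K27me3 itself was mapped after lentiviral delivery, over 24 h, of either a control shRNA or one that targets E2F1 (shE2F1), followed by 72 h in puromycin at 2 µg/ml. Chromatin for E2F1 was sonicated. For histone marks the study's methods name micrococcal nuclease, whereas the sample labels name sonication for all samples. How the H3K27me3 chromatin was cut is therefore not settled here. Each of these 5 groups was 1 library, so there were no replicates, no test between conditions was possible, and every difference below compares 2 libraries. No library measured RNA or protein, and the extent of E2F1 knockdown was therefore not checked here.

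In the textbook account, D-type cyclins pair with CDK4 and CDK6, and cyclins E and A pair with CDK2. These kinases phosphorylate the retinoblastoma protein, which then releases E2F factors, and E2F factors drive transcription of S-phase genes, several of them encoding the cyclins and phosphatases of the same loop. CDC25A removes inhibitory phosphates from CDK2 and CDK1.

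The promoters of 4 members are shown first because they span the range of E2F1 signal, from 2 of the highest in the set to none. Sequences came from RefSeq promoters of GRCh38.p14, in which 6 members had 9 entries. CCND1, CCND2, CDK2 and CCNE2 were not matched. Each line gives the 250 bases that end just before the start site, 5′ to 3′ on the gene's own strand. In CDC25A, capitals mark 2 overlapping E2F motifs, and in CCNA2 and CCNE1 they mark the bases between the outermost E2F1 summits of the lists. A summit is the base of highest signal in a peak.
CDC25A, chr3:48188418-48188667, minus strand: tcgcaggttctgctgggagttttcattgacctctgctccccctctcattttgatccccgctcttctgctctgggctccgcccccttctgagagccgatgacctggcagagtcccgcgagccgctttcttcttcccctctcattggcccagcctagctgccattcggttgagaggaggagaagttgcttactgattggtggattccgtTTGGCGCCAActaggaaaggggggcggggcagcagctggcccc
CCNA2, chr4:121823884-121824133, minus strand: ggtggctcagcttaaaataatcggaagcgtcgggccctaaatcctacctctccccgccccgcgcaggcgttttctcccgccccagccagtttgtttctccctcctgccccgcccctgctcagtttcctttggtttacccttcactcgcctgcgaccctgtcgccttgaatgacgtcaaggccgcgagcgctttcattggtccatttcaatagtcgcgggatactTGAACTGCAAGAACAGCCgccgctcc
CCNE1, chr19:29811741-29811990, plus strand: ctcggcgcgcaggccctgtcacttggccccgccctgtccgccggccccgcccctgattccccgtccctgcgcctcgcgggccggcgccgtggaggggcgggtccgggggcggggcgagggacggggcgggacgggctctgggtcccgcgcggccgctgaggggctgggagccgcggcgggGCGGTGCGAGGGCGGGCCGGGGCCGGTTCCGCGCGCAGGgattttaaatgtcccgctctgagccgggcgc
CDK6, chr7:92836574-92836823, minus strand: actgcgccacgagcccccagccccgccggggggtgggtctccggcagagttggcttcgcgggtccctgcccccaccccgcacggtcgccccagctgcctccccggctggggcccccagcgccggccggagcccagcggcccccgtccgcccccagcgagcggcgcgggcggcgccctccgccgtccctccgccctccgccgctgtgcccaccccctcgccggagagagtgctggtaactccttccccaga
The E2F motif searched was TTNNCGC on either strand, where each N had to be C or G. In CDC25A a match on either strand shared 4 letters with the other, and together they ran from 43 to 34 bases before the start. CDC25A was the 1 of the 9 member entries with a match in this window, against 10.9% of 35116 RefSeq promoters. The summits of the CDC25A peaks lay 17, 13 and 26 bases before the start in untreated, DMSO and GSK126, on the start-site side of the motif. In CCNA2 the summits lay 21, 26 and 9 bases before the start, and in CCNE1 they lay 32 bases before it in DMSO and 70 in GSK126. The CDK6 promoter had no peak in any of the 5 lists.

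E2F1 promoter peaks, meaning peaks with a summit within 1 kb of a TSS of the gene, were called at 4 of the 10 members in untreated, 8 in DMSO and 8 in GSK126. The same rule called 5.85% of all protein-coding genes in untreated, 33.5% in DMSO and 51.5% in GSK126. The 4 untreated members, CDC25A, CDK2, CCNE2 and CCNA2, were bound in all 3 lists, which held for 5.71% of all genes. CCND1, CCND3, CCNE1 and CDK4 were called in DMSO and GSK126 only. CCND2 and CDK6 were called in none. The lists were unequal, with 1056, 15703 and 14276 peaks in untreated, DMSO and GSK126, and the lowest background in them was 0.668, 1.82 and 1.70 fragments per base. A member without an untreated peak was therefore only not detected in the untreated list, and absence of E2F1 was not shown. The part of depth in this was not tested. Genes with several TSSs have more sequence in which a peak can count. With the single 5′ end of each gene record the members called were 3, 6 and 6, against 5.09%, 28.4% and 44.3% of all genes.

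**Figure D1:**
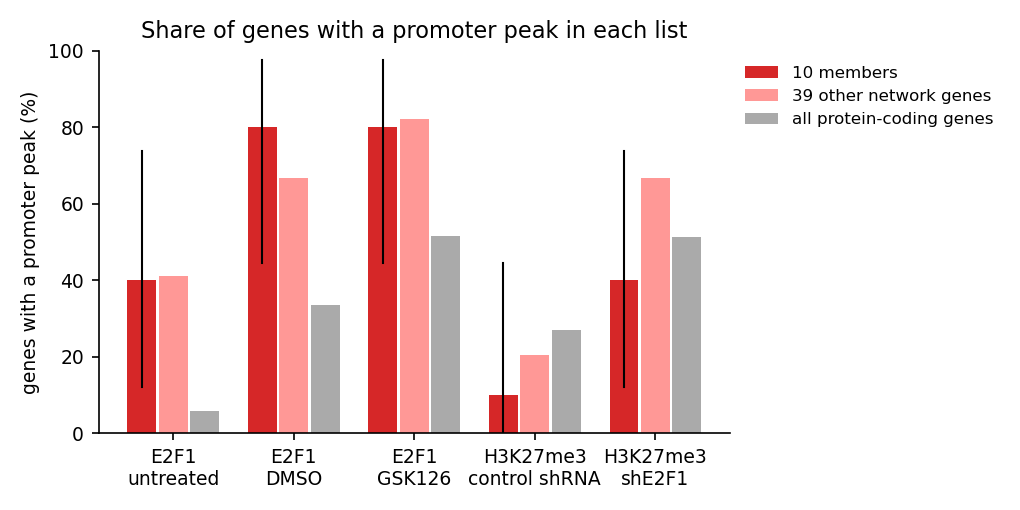
Share of genes with a promoter peak (%, linear axis from 0) in each of the 5 lists, for the 10 members, the 39 other network genes described below and all 19970 protein-coding genes. Black lines are exact 95% binomial intervals that treat the 10 members as independent draws of genes. The members were chosen by name, so the lines are neither the error of a library nor a test. In untreated, 4 of the 10 members had an E2F1 peak against 5.85% of all genes, whereas 4 had H3K27me3 in shE2F1 against 51.2%.

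The fold enrichment of a peak is the ratio of signal to local background at its summit. Over the members bound, the strongest promoter peak had a median fold of 9.15 in untreated, 13.6 in DMSO and 24.9 in GSK126. Over all genes bound in the same list, the medians were 8.28, 6.03 and 7.78. When the 6539 genes bound in both DMSO and GSK126 were split by their DMSO fold into 4 classes of like size, 6 of the 8 members fell in the top class, with folds of 8.98 and more. Of the 1635 genes in that class 48.9% also had an untreated peak, as did 4 of the 6 members. CCND3 lay in the next class down and CCND1 in the one below it.

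**Figure D2:**
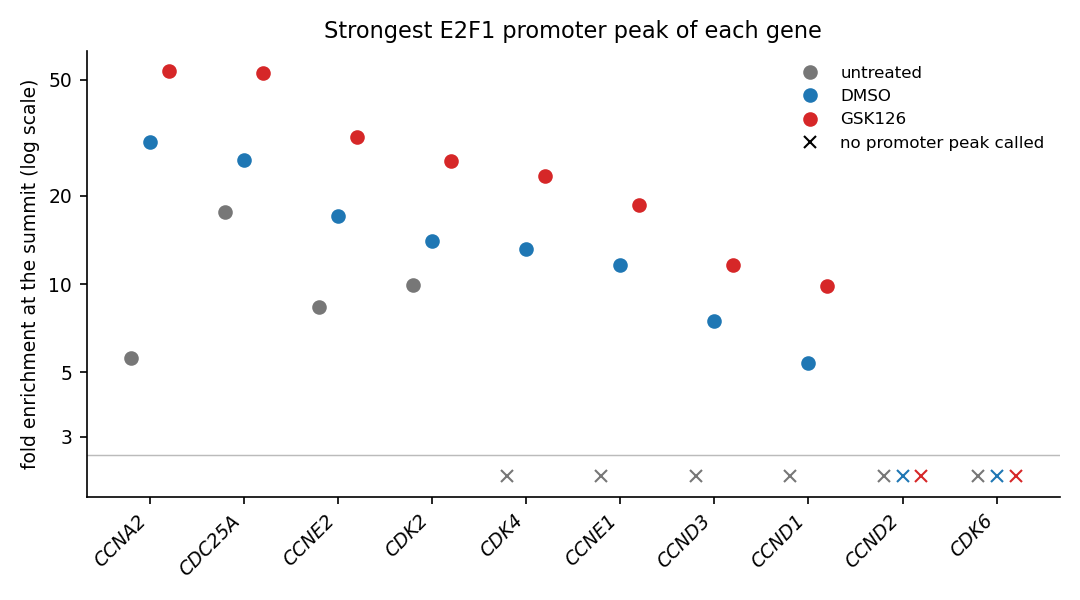
Fold enrichment (log scale) of the strongest E2F1 promoter peak of each member in untreated, DMSO and GSK126, with 1 point per library, and crosses under the grey line where no promoter peak was called. CCNA2 and CDC25A lead in GSK126 at 53.5 and 52.6, GSK126 is above DMSO in all 8 members bound in both, and CCND2 and CDK6 have crosses only.

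The D-type cyclins, the subunits that answer to growth signals and activate CDK4 and CDK6, had the lowest E2F1 folds among the members bound. CCND1 (cyclin D1, ENSG00000110092.4, chr11:69641156-69654474, plus strand) had no peak in untreated, a fold of 5.37 in DMSO and 9.81 in GSK126. Its summits lay in an intron, 250 bp upstream of an internal TSS in DMSO and 276 bp upstream of it in GSK126. GSK126 had a further peak with a fold of 5.89 at 223 bp before the first TSS of the gene. CCND1 thus ranked 4038 of 6698 bound genes in DMSO and 3572 of 10279 in GSK126, below the median fold of all bound genes in DMSO and above it in GSK126. CCND3 (cyclin D3, ENSG00000112576.13, chr6:41934934-42050357, minus strand) had no untreated peak, a fold of 7.47 in DMSO and 11.6 in GSK126. These summits lay in an untranslated (UTR) exon, 10 bp and 1 bp downstream of TSSs far inside the gene record, from which shorter transcripts start. At the far 5′ end of CCND3, where TAF8 also has a TSS within 1 kb, further peaks had a fold of 3.53 in DMSO and 7.72 in GSK126, and another in GSK126 had 4.99. CCND2 (cyclin D2, ENSG00000118971.9, chr12:4269771-4305353, plus strand) had no E2F1 peak in any list, at its promoters or over its body.

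The E- and A-type cyclins, the activating subunits of CDK2, had higher values. CCNE1 (cyclin E1, ENSG00000105173.14, chr19:29811991-29824312, plus strand) had no untreated peak, a fold of 11.6 in DMSO and 18.7 in GSK126, with both summits upstream of its first TSS. CCNE2 (cyclin E2, ENSG00000175305.18, chr8:94879770-94896678, minus strand) had folds of 8.37, 17.1 and 31.9 in untreated, DMSO and GSK126. Its peaks were up to 3011 bp wide and their summits, all in introns, moved between lists. In DMSO the summit lay 366 bp downstream of the first TSS, and in GSK126 it lay 243 bp upstream of an internal TSS, 815 bp away. A TSS of NDUFAF6, a mitochondrial complex I assembly factor, lies 36 bp from the GSK126 summit, so these peaks cannot be assigned to one gene. CCNA2 (cyclin A2, ENSG00000145386.11, chr4:121816444-121823883, minus strand) had folds of 5.57, 30.5 and 53.5. It had the lowest fold of the 4 members bound in untreated and the highest of all members in DMSO and GSK126. It ranked 992 of 1168 bound genes in untreated, 69 of 6698 in DMSO and 70 of 10279 in GSK126. The local background at CCNA2 was 3.13 fragments in untreated, against a lowest value of 0.668 in that list, and 2.21 in DMSO, against a lowest value of 1.82. Its part in the low untreated fold was not tested. The untreated summit of CCNA2 held 22 fragments (95% Poisson interval 13.8 to 33.3). CCNE2 held 13 (6.92 to 22.2) and CDK2 held 16 (9.15 to 26.0), both with a higher fold. These intervals overlapped, so no order by fragments was resolved.

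Among the kinases, CDK2, the partner of cyclins E and A, had folds of 9.93, 14.0 and 26.3 in untreated, DMSO and GSK126. Its summits lay 8, 9 and 8 bp downstream of a TSS (ENSG00000123374.11, chr12:55966781-55972789, plus strand). A TSS of PMEL, a melanosome protein, lies 53 bp from the GSK126 summit, so these peaks too are shared between genes. CDK4 (ENSG00000135446.17, chr12:57747727-57756013, minus strand) had no untreated peak, a fold of 13.2 in DMSO and 23.5 in GSK126. Both CDK4 summits lay in a UTR exon, 5 and 3 bp downstream of a TSS that is not the 5′ end of the gene record. CDK6 (ENSG00000105810.10, chr7:92604921-92836573, minus strand), which shares the D-type cyclins with CDK4, had no promoter peak in any list.

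CDC25A (ENSG00000164045.12, chr3:48157146-48188417, minus strand) had the highest fold of the members in untreated, at 17.6, followed by 26.6 in DMSO and 52.6 in GSK126. It ranked 63, 119 and 76 among the bound genes of the lists, and its −log10 q values were 42.4, 168 and 407. Its summits held 44 fragments in untreated (32.0 to 59.1), 158 in DMSO (134 to 185) and 297 in GSK126 (264 to 333). By fragments the GSK126 order of the members was CDC25A at 297, CCNA2 at 162, CCNE1 at 104, CCNE2 at 101, CDK2 at 94, CCND3 at 82, CDK4 at 75 and CCND1 at 64. CDC25A stood above CCNA2 (138 to 189), and CCNA2 above CCNE1 (85.0 to 126), with intervals that did not overlap. From CCNE1 down, the intervals of all neighbours in the order overlapped. The order by fold differed because the local background differed, at 2.05 fragments for CCNA2 and 4.66 for CDC25A in GSK126.

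**Figure D3:**
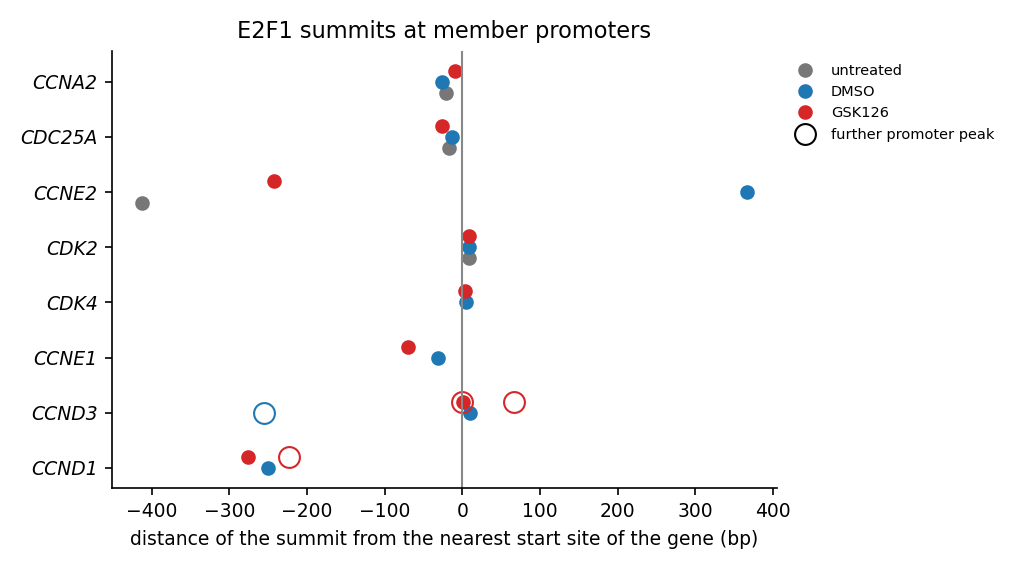
Distance in bp of each E2F1 promoter summit from the nearest TSS of the member, negative upstream, in untreated, DMSO and GSK126. Filled points are the strongest peak of the gene in a list and open points are further peaks. CCNA2, CDC25A, CDK2, CDK4 and CCNE1 have all summits within 70 bp of a TSS, whereas those of CCNE2 range from 412 bp upstream to 366 bp downstream.

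The comparison of GSK126 with DMSO asks how E2F1 occupancy differed when EZH2 activity was inhibited. All 8 members bound in both lists had a higher fold in GSK126, as did 97.2% of all genes bound in both, so the direction was that of nearly all genes. On the log2 scale, the fold ratio of GSK126 to DMSO had a median of 0.85 for the members (range 0.64 to 0.99, n = 8 genes) and 0.73 for the 6539 genes. None of the 8 reached a ratio of 2, which 18.4% of all genes bound in both did. The smallest fold ratio was 1.56, at CCND3, and the largest 1.98, at CDC25A.

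Fragment numbers at the summits, each divided by the lowest background of its list, gave the same direction without the control signal. The ratio was 2.01 for CDC25A (95% interval 1.65 to 2.45, from 158 and 297 fragments), and 1.93 for CDK2 (1.36 to 2.77, from 52 and 94). It was 1.85 for CCND1 (1.22 to 2.85), 1.82 for CDK4 (1.24 to 2.71) and 1.79 for CCNA2 (1.38 to 2.32). CCNE1 also had 1.79, from 62 and 104 fragments, with an interval that began at 1.30. It was lowest for CCND3, at 1.57 (1.10 to 2.24), and CCNE2, at 1.48 (1.08 to 2.03). All 8 intervals lay above 1, and all overlapped one another, so no order among the members was resolved at this depth. The intervals cover counting error only. How many of all genes bound in both had an interval above 1 was not computed, so this count of 8 has no background. By fold, 97.2% of those genes were higher in GSK126. The median log2 fragment ratio was 0.86 for the members and 0.77 for all genes bound in both. CCNE2 was the member whose 2 measures differed most, with a fold ratio of 1.86. Its background was 3.32 fragments in DMSO and 2.19 in GSK126, at summits 815 bp apart.

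**Figure D4:**
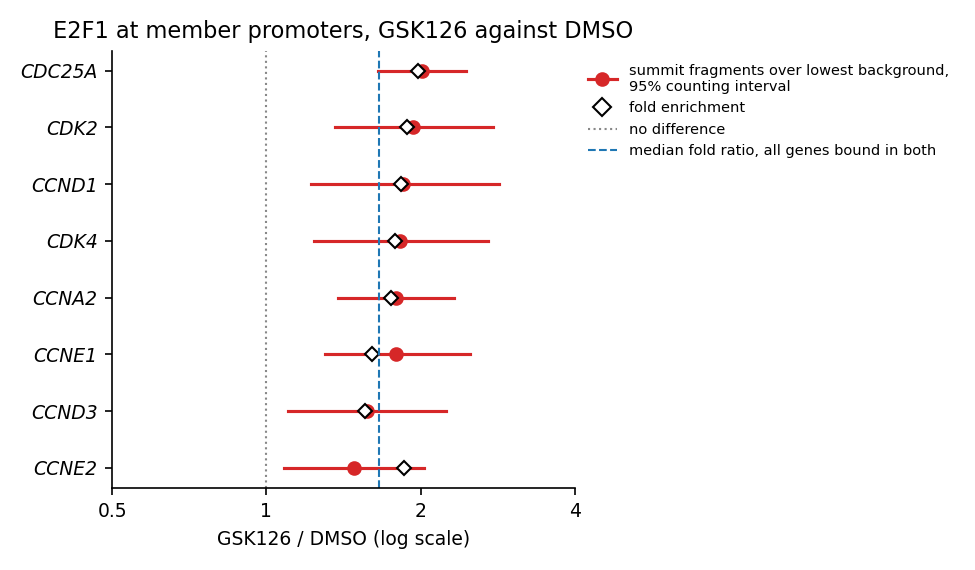
Ratio of GSK126 to DMSO (log scale) at the strongest E2F1 promoter peak of the 8 members bound in both. Red points and lines are summit fragments over the lowest background with 95% counting intervals, open diamonds are the fold enrichment, and the dashed line is the median fold ratio of all 6539 genes bound in both. All intervals lie above 1 and those of all 8 members overlap. The share of the 6539 genes with an interval above 1 was not computed.

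The H3K27me3 lists address whether the mark at these genes differed after E2F1 knockdown. A promoter was counted as marked when any base of a broad peak fell within 1 kb of a TSS. With control shRNA 1 of the 10 members was marked, CCND2, against 27.1% of all genes. With shE2F1 4 were marked, CCND2, CCND3, CCNE1 and CCNA2, against 51.2%. The mark was called only in shE2F1 at 3 members, against 26.0% of all genes, and only in control shRNA at 0, against 1.94%. Among genes with E2F1 peaks in both DMSO and GSK126, the mark was called only in shE2F1 at 3 of 8 members and at 43.5% of all such genes, so the members' share was near the background. CCND1, CCNE2, CDK2, CDK4, CDK6 and CDC25A had no promoter peak of the mark in either list. The shE2F1 list was also the larger one, with 135683 peaks over 179 Mb against 123957 peaks over 143 Mb, and its part in these counts was not tested.

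Broad-peak folds are averages over the peak, and over all genes marked in shE2F1 the median fold of the strongest promoter peak was 3.22. Of the 3 members marked only in shE2F1, CCNE1 lay below that median, CCNA2 close to it and CCND3 above it. CCNE1 had none with control shRNA, and in shE2F1 its peak had a fold of 2.58 and −log10 q 1.36. CCNA2 had none with control shRNA, and in shE2F1 a peak with a fold of 3.31 and −log10 q 1.98. CCND3 had none and then 3 peaks, the strongest at a fold of 4.04, with −log10 q 4.63, at the 5′ end it shares with TAF8, and another with 2.87 and 2.44 at the internal start that carried its strongest E2F1 peak. At a −log10 q of at least 2, the members marked in shE2F1 were CCND2 and CCND3, 2 of 10 against 28.9% of all genes. CCND3 alone was then marked only in shE2F1, against 18.3% of all genes. Of the members with the highest E2F1 folds, CCNA2 had a peak of the mark just below that threshold and CDC25A had none.

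CCND2, the cyclin without E2F1 peaks, carried the mark in both libraries. Its strongest promoter peak had a fold of 4.25, at −log10 q 3.58, with control shRNA, and 3.64 and 3.08 with shE2F1. The widest peak was 5397 bp with control shRNA, from just before the first TSS into an intron, and 4544 bp with shE2F1. Peaks covered 56.5% of the CCND2 promoter windows with control shRNA and 65.0% with shE2F1, and 40.7% and 38.0% of the rest of the gene body. With 1 library each, and no depth recovered for the H3K27me3 lists, no error could be given for these shares.

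**Figure D5:**
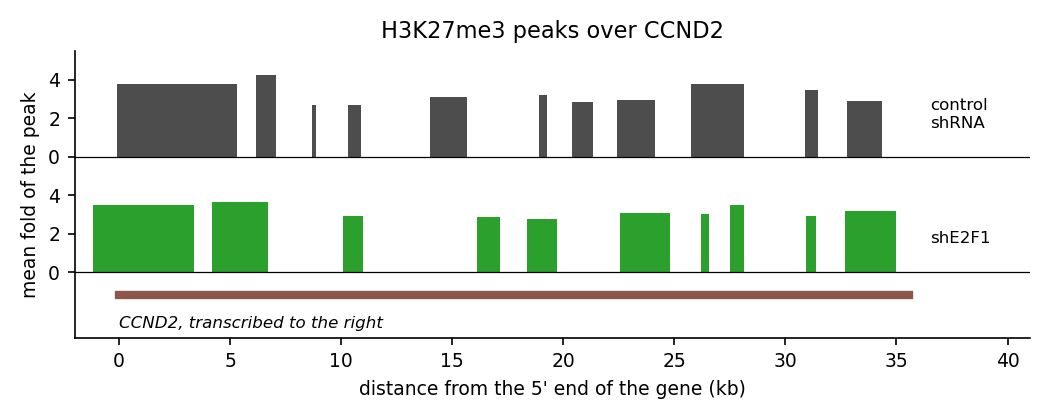
H3K27me3 peaks over CCND2 with control shRNA (upper) and shE2F1 (lower), drawn to scale by distance in kb from the 5′ end of the gene, with the mean fold of each peak as bar height and the gene as a brown line. Both libraries have peaks along the whole gene, the widest at its 5′ end. Most peaks beyond the promoter windows have a −log10 q below 2.

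Beyond the promoters, little was called over the bodies of the members. E2F1 peaks there were found at 0 of 10 members in untreated, 1 in DMSO and 1 in GSK126, against 0.446%, 5.74% and 7.86% of all genes. The 1 member was CDK6, with a peak in an intron at chr7:92695558-92695901 in DMSO (fold 5.10, −log10 q 7.66, 21 fragments) and at chr7:92695516-92695849 in GSK126 (fold 4.18, −log10 q 4.82, 16 fragments). The DMSO summit lay 29904 bp from the nearest TSS of CDK6 and had 1 E2F motif within 100 bp. It was the only E2F1 peak at a member whose fold was lower in GSK126 than in DMSO, and the intervals of the fragments, 13.0 to 32.1 and 9.15 to 26.0, overlapped. H3K27me3 peaks covered 2.69% of the members' gene-body bases with control shRNA and 2.69% with shE2F1, against 4.44% and 5.52% over all genes. Without CCND2 the members' shares were 0% and 0.193%. Apart from CCND2 and a stretch of 380 bases in CCND3, the body signal was 1 peak in CDK4 with shE2F1, whose fold was 2.73 at −log10 q 1.18. The midpoint of that peak also lay within 1 kb of a TSS of another protein-coding gene, MARCHF9.

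The motif given above was sought within 100 bp of each summit. At the strongest GSK126 promoter summit it was found at 3 of 8 members, CCND1, CDK2 and CDC25A, against 32.3% of all genes bound in GSK126. The nearest motif centre lay 34 bp from the summit in CCND1, 14 bp in CDK2 and 11 bp in CDC25A. In DMSO 4 of 8 members had one, CCNE2 being the fourth at 24 bp, and in untreated 2 of 4 had one, CDK2 and CDC25A. Over all summits, those away from promoters included, the share was 54.5% in untreated, 17.5% in DMSO and 26.9% in GSK126. It was 11.6% in windows of the same length at the 5′ end of all genes. The share over strongest promoter summits of all bound genes was computed for GSK126 only. The DMSO and untreated counts of members therefore have no like background. CCNA2 had none within 100 bp of a summit although its fold was the highest of the members in DMSO and GSK126, and its peak held 1 motif farther out. These letters were in no part of the CCND3 peak.

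The wider G1/S network was taken as a list of 39 other genes. Of these, 16 had an E2F1 promoter peak in untreated, 26 in DMSO and 32 in GSK126, against 5.85%, 33.5% and 51.5% of all genes. The same shares are the background for the counts by class below. The 26 bound in both DMSO and GSK126 had a median log2 fold ratio of 0.81, against 0.73 for all genes bound in both. All 26 were higher in GSK126, as were 97.2% of all genes bound in both. Of 13 pocket protein, E2F and DP genes, 7, 11 and 12 were bound in the 3 lists. The highest in GSK126 were E2F8, an atypical repressor E2F, with folds of 12.2, 31.7 and 64.0 in untreated, DMSO and GSK126, and RBL1, the pocket protein p107, with 17.6, 33.3 and 63.5. Of 7 CDK inhibitors, 3, 4 and 4 were bound, and CDKN2D, an inhibitor of CDK4 and CDK6, had folds of 41.7, 61.1 and 105, above every member in each list. The 7, and so the 39, include CDKN2A and CDKN2B, which the cell line is known to have lost, so neither could be called. Of 8 G2/M counterparts, 4, 5 and 7 were bound, with 14.8, 27.5 and 54.6 at PKMYT1, a kinase that inhibits CDK1. The CDK-activating kinase, of 3 genes, had 1 bound in GSK126, MNAT1 at 3.93. Of 8 cofactors and ubiquitin ligases, 2, 6 and 8 were bound, led by FBXO5, an inhibitor of the anaphase-promoting complex, at 16.3, 36.4 and 61.3.

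H3K27me3 was called at promoters of 8 of these 39 genes with control shRNA and 26 with shE2F1, against 27.1% and 51.2% of all genes. It was called only in shE2F1 at 18 of the 39, against 26.0% of all genes. Among all genes bound in DMSO and GSK126 the share was 43.5%. Some of the 18 were not bound in both, so that share covers a different set of genes. A like share among the listed genes bound in both was not computed, so the 18 are not read as an excess over the background. The strongest of the 18 was SKP2, the ubiquitin ligase subunit that targets p27, with a fold of 5.68 at −log10 q 14.9. The next highest −log10 q was 3.97, at E2F6, and the lowest was 1.05, at CCNB1. Most of the 18 lay below a −log10 q of 2, and that threshold was not applied to these counts. RBL1, marked in both, had a fold of 3.85 with control shRNA and 8.80 with shE2F1. By distance over the 5 lists, on log2(fold + 1) with 0 for no peak, the 3 listed genes most like the median of the members were E2F2 (distance 0.20), CDC25B (0.30) and FZR1 (1.48). E2F2 had folds of 10.9 in DMSO and 19.5 in GSK126 and no peak elsewhere. CDC25B, the G2/M relative of CDC25A, had 10.8 and 24.9.

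As a check of the cell line, CDKN2A and CDKN2B, the inhibitors of CDK4 and CDK6 that MDA-MB-231 is known to have lost, were free of peaks in all 5 lists. They lay in a peak-free stretch of 4993 kb, chr9:20684711-25677527.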

How the data were processed

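The authors trimmed reads, aligned them to GRCh38 and called peaks per library, narrow for E2F1 and broad for H3K27me3. The submitters' processing notes name FastQC 0.11.5, cutadapt 4.5, Bowtie2 2.5.2, Picard, SAMtools and MACS2 2.2.9.1, and the study's methods give a q-value threshold of 0.01 and a broad cutoff of 0.1. Which control library entered each call is not given in the sources used here. The deposited lists hold the authors' fold enrichment, a ratio of signal to background, with −log10 p-value and −log10 q-value for each peak. The deposited score was not used. The summit offset, another deposited column, located narrow peaks, while broad peaks have no summit and were placed by any base they cover. An untreated input sample is also described by the labels and was not used here.

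Fragments and background at each E2F1 summit were solved from fold and −log10 p, assuming the pseudocount of 1 that MACS2 adds, and a whole number of fragments was found for all 1056, 15703 and 14276 peaks within a relative tolerance of 2e-05. The solver was tested on simulated data. No depth was recovered for H3K27me3, whose values are averages. Genes and TSSs came from GENCODE release 44, which is on the authors' build and newer than their annotation, and no peak lay beyond the end of an hg38 chromosome. Promoter windows were 1000 bp to either side of a TSS, and gene bodies excluded them. A gene was represented by its promoter peak of highest fold. Intervals are 95% exact Poisson for fragments, exact conditional binomial for ratios and Clopper-Pearson for shares. Those for fragments and ratios cover counting error only. Those for shares treat the members as independent draws of genes, although they were chosen by name. Computation used Python 3.11.15, numpy 2.4.6 and scipy 1.17.1.

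The members and the 39 network genes were chosen with earlier results of these data known. All 10 members are named, with at most 3 genes for each class of the network list and the 3 most alike. Alternatives were a stricter q, other windows, other overlap rules, a single 5′ end per gene, other motif rules, and gene bodies with the promoter windows kept in.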

Additional observations from a re-analysis of the deposited data

How the results depend on the processing

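Of 39 alternatives, 28 stayed close to the reported value and 11 did not, where close meant within 1.5 times a count, within the members' range for the median ratio, and within the exact 95% binomial interval over bases for a body share, which is narrow because neighbouring bases are not independent. The median log2 ratio of GSK126 over DMSO was 0.85 to 0.86 under the other fragment, q and overlap rules and 0.83 without CCNE2, the last chosen after seeing the data. With a −log10 q of at least 2, members marked by H3K27me3 in shE2F1 numbered 2 in place of 4, and those marked only in shE2F1 numbered 1 in place of 3, CCNA2 and CCNE1 being lost. At that threshold the body share under the mark was 1.09% with control shRNA and 1.01% with shE2F1, and with promoter windows included it was 3.38% and 3.65%, against 2.69% in both. E2F1 body peaks were at 6 members in DMSO and 6 in GSK126 with promoter windows included, and at 0 in GSK126 with a −log10 q of at least 5, CDK6 being lost. An E2F motif was found at 7 members anywhere in the GSK126 peak and at 1 when a further T was required in front of the motif, against 3. The members' strongest GSK126 peaks were 944 to 3011 bp wide, against a median of 618 bp over that list. Shares over all genes were not computed for these body-peak and motif settings, so the counts have no background. With the single 5′ end, CCNE2 was lost in untreated, CCND1 and CDK4 in DMSO, and CCNE2 and CDK4 in GSK126. No paired analysis was possible because each group has 1 library and no result comes from a test, and for the same reason no replicate could be left out. The lowest background was 0.668 fragments in untreated, against 1.82 in DMSO and 1.70 in GSK126. The part of depth in the small number of untreated peaks was not tested, and the depth of the H3K27me3 lists is unknown.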

Other observations

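E2F1 peaks in the 50 kb on either side of the members, outside their promoters and bodies, were listed after the data were seen. CCND1 had a peak upstream of its first TSS that was stronger than its promoter peaks, with a fold of 8.63 in DMSO (4455 bp from the gene) and 13.6 in GSK126 (4461 bp). The nearest TSS of another protein-coding gene, LTO1, lay 21729 bp from the DMSO summit. CCNE1 had a peak downstream of the gene with a fold of 3.68 in DMSO, 20341 bp from its end, and 8.18 in GSK126. It lay 2835 bp from any annotated TSS in DMSO. The other flanking peaks lay within 277 bp of an annotated TSS outside the member, and the strongest was at EXOSC9, an exosome subunit gene 15111 bp from CCNA2 at the untreated summit, with folds of 14.8, 34.6 and 53.7 in untreated, DMSO and GSK126. CCNA2 itself had 5.57, 30.5 and 53.5.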
